A study of Mus musculus with 6 samples.

Results

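The Wnt ligands, their receptors and their secreted antagonists were examined in mouse embryonic fibroblasts (MEFs) with and without YME1L, a protease that sits in the inner membrane of mitochondria and uses ATP. The rule that picks the members uses gene symbols. It takes the loci named as Wnt ligands, R-spondins, Frizzled receptors, the co-receptors Lrp5 and Lrp6, Ror1 and Ror2, Lgr4 to Lgr6, the secreted Sfrp and Dkk proteins, Wif1, Axin1, Axin2 and Lef1, and the set held 52 of the 51499 loci in the deposited table, each of them a locus of a single gene.

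Poly(A)-selected RNA was sequenced from 3 cultures per genotype. The control cells, labelled WT with the genotype Yme1l fl/fl, carried loxP sites in both Yme1l alleles, and the Yme1l-/- cells carried the deleted alleles. Cells of both genotypes descend from MEFs of loxP-flanked Yme1l mice made immortal with SV40, and Cre was delivered to the cells before clones were picked and sorted by genotype. How many clones stand behind the 3 cultures of a genotype is not stated in the sources used here, so genotype and clone cannot be told apart, and the p-values measure the spread between cultures.

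Wnt proteins are secreted, lipid-modified signals. In the canonical branch a Wnt binds a Frizzled receptor together with Lrp5 or Lrp6, the complex around Axin that destroys β-catenin is held back, and β-catenin enters the nucleus and acts with TCF/LEF factors. Other Wnts act through Frizzled and Ror receptors on cell shape and movement. R-spondins bind Lgr4, Lgr5 and Lgr6 and keep Frizzled receptors at the cell surface, while Sfrp proteins and Wif1 bind Wnts outside the cell and Dkk1, Dkk2 and Dkk4 bind Lrp5 and Lrp6. In fibroblasts and other mesenchymal cells the pathway is known for its part in bone, fat and skin development and in wound repair.

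The deleted gene was measured first. Yme1l1 (the name used for Yme1l in the count table) stood at 191, 192 and 183 CPM in the WT libraries and at 37.9, 38.9 and 40.6 CPM in the Yme1l-/- libraries, where CPM is counts per 1e6 fragments of the scaled library, and 20.7% of its WT level was left. Libraries held 33180867 to 49351107 counted fragments, 38 to 41 of the 52 members had a fragment in a given library, and cultures of the same genotype differed beyond counting error. Fibroblast markers summed to 12502 to 13028 CPM in WT and 8642 to 9254 CPM in Yme1l-/- libraries, with all 14 markers above 3 fragments in some library. Of these, 12 were tested, 9 called lower, among them Fn1 and Vim, and 2 called higher, Col1a1 (log2 fold change 0.43) and Sparc (0.68). WT replicate 2 stood apart from WT replicates 1 and 3 for the fibroblast genes Col3a1 (301 CPM against 86.3 and 91.1) and Dcn (7.85 CPM against 1.57 and 1.56), and without it 31 members were called, 13 higher and 18 lower, beside 63.5% of all loci in that fit. Endothelial markers summed to 1.65 to 2.69 CPM in WT and 1.67 to 2.00 CPM in Yme1l-/-, with Erg at least 10.4-fold lower and Kdr called higher (log2 fold change 0.72). Blood markers summed to 1.68 to 1.87 CPM and 3.49 to 3.93 CPM, nearly all of it Cd68, called higher (log2 fold change 1.04), with the other 6 of 7 at 3 fragments or fewer in every library. Krt18, an epithelial keratin that some fibroblasts also express, averaged 31.9 ± 1.12 CPM in WT cultures and 0.0262 ± 0.030 CPM in Yme1l-/- cultures (SD, n = 3), and with it the sum of 8 epithelial markers went from at least 33.3 CPM to at most 0.657 CPM. The 6 smooth muscle markers summed to 489 to 555 CPM in WT and to 967 to 1216 CPM in Yme1l-/-, and the 7 neural markers to 38.5 to 44.3 CPM and 18.7 to 21.5 CPM. These marker differences ran along with every difference between genotypes given here and their part in the results was not tested. In RNA of whole cultures, fewer cells of a type and less RNA per cell cannot be told apart.

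The 4 members on which the results turn most were Sfrp2 and Dkk2, whose transcripts almost disappeared, Wnt10b, the leading ligand of WT cells, and Wnt6, the ligand with the largest gain. The 250 bases before their start sites are printed here from RefSeq promoters (build GRCm38.p6), 5′ to 3′ on the strand of the gene, with each CpG dinucleotide in capitals, since the number of CpGs sets these promoters apart from each other. They lie at chr3:83766071-83766320 (plus strand) for Sfrp2, chr3:132085042-132085291 (plus strand) for Dkk2, chr15:98778151-98778400 (minus strand) for Wnt10b and chr1:74771642-74771891 (plus strand) for Wnt6.
Sfrp2: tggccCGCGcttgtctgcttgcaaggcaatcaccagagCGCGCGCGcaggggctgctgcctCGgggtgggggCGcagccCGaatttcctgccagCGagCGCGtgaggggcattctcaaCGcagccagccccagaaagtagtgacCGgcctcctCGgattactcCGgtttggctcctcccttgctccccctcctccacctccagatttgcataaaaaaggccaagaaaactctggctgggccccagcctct
Dkk2: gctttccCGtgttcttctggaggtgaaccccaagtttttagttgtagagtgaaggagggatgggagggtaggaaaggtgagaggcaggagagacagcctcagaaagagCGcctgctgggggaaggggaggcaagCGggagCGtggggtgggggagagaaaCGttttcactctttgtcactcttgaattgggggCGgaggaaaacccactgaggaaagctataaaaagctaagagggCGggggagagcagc
Wnt10b: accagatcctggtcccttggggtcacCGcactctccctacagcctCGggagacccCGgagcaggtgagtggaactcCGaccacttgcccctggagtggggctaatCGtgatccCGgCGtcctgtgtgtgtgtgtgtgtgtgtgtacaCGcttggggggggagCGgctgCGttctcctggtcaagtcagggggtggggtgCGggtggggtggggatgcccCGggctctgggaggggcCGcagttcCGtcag
Wnt6: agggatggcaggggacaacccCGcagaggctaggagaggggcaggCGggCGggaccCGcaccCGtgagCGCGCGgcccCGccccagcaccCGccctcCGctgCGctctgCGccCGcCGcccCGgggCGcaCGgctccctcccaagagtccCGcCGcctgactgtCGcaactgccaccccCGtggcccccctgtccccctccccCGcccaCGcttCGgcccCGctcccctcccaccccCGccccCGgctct

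Wnt6 had 28 CpGs in these 250 bases, Sfrp2 had 16, Wnt10b had 14 and Dkk2 had 7, against a median of 6 over 32851 mouse promoters of the same length. Observed over expected CpG ratios were 0.761 for Wnt6, 0.640 for Sfrp2, 0.522 for Wnt10b and 0.449 for Dkk2. All promoters had a median ratio of 0.373, and the 40 promoters found for 34 of the 52 members had a median of 0.743. The core letters of TCF/LEF binding sites, CTTTGAT or CTTTGAA on either strand, occurred in 3 of the 40 member promoters (7.5%) and in 7.48% of all promoters. The 3 promoters belonged to Wnt5b, Wnt11 and Dkk1, and none of the 4 printed windows held the letters.

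Of the 52 members, 32 passed the filter on low counts and were compared between genotypes with edgeR's quasi-likelihood test, with p-values adjusted over all 13867 loci tested and a call at an adjusted p under 0.05. By this test 30 members were called, 12 higher and 18 lower in Yme1l-/-. Calls were common in these cells. Of all loci tested, 67.7% were called, 33.6% higher and 34.1% lower, and in 71.9% the libraries of the genotypes did not overlap, which was also so for 30 of the 32 members. A call with at least a 2-fold change was made for 15 members, 5 higher and 10 lower, and for 17.7% of all loci (9.1% higher and 8.63% lower). The median log2 fold change was -0.43 for the members, also with Dkk3 at its bound, and -0.0041 for all loci. Wnt7b, Dkk3 and Sfrp2 reached 10 fragments in every WT library and not in every Yme1l-/- library, and Wnt6 and Ror1 did so in Yme1l-/- and not in WT, so these members had to differ once they passed the filter. For the 27 members with at least 10 fragments in all 6 libraries, 25 were called, 10 higher and 15 lower, beside 68.1% of all loci held to that filter. At least a 2-fold change was called for 10 of them, and that share was not counted for all loci in this fit.

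**Figure D1:**
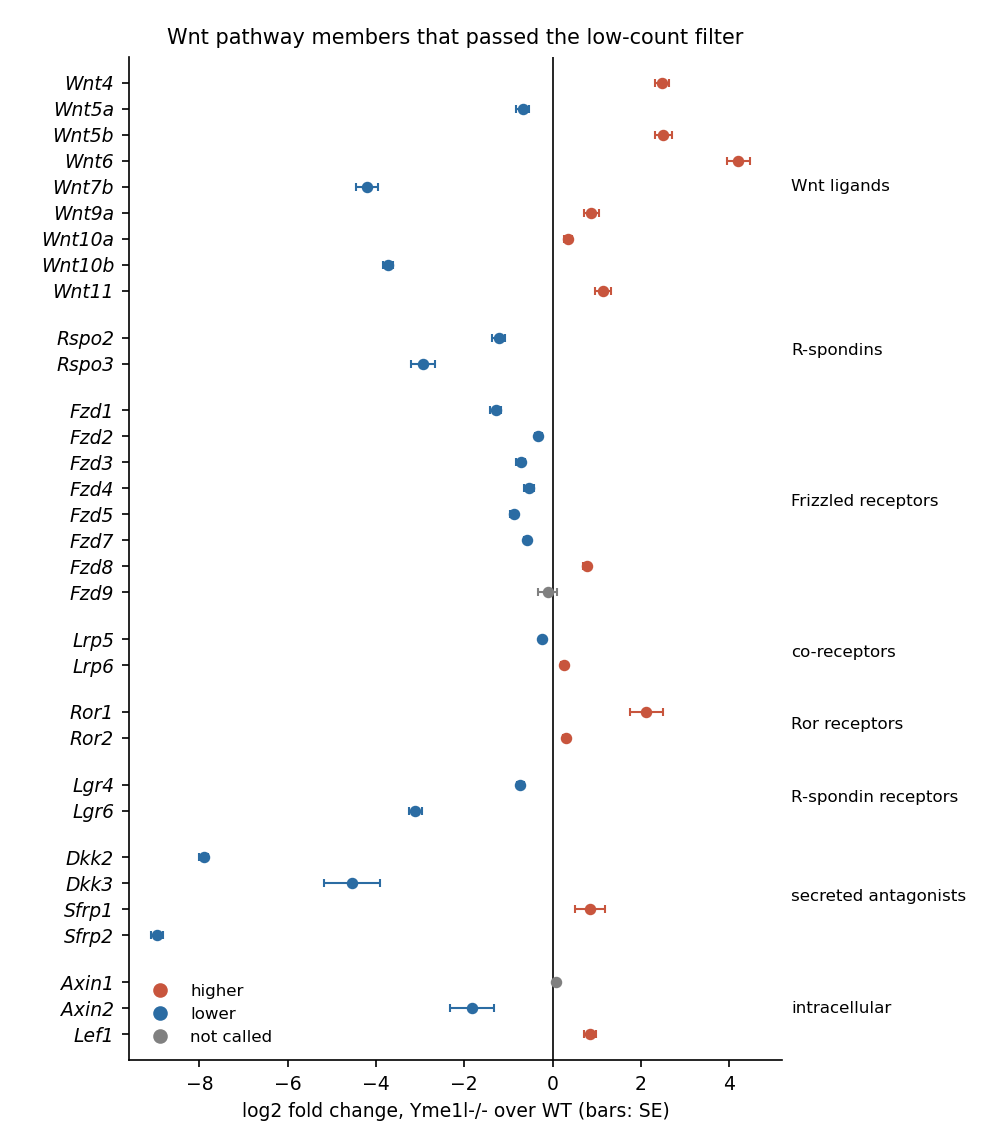
Log2 fold change (Yme1l-/- over WT, x axis, bars show SE) of the 32 members tested, grouped by role on the y axis and coloured by call. The bars are taken from the test statistic and are too short for members with few fragments in a genotype, such as Sfrp2 and Dkk2. The lowest points are Sfrp2 at -8.96 and Dkk2 at -7.90, the highest is Wnt6 at 4.21, most Frizzled receptors lie just left of 0, and the point of Dkk3 is the fitted value, which depends on the prior count because its Yme1l-/- libraries held 3 fragments or fewer.

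Secreted antagonists showed the largest differences. Sfrp2 and Dkk2 were among the more abundant members in WT cells and nearly absent from Yme1l-/- cells. Dkk3 was low in WT and at the limit of detection in Yme1l-/-. Of the 4 tested antagonists only Sfrp1 was called higher and 3 were called lower. Over all loci, 33.6% were called higher and 34.1% lower. Sfrp2 and Dkk3 passed the filter only through WT, so both had to differ. Sfrp2, a secreted protein that resembles the Wnt-binding part of Frizzled, had 40.6, 41.1 and 43.9 CPM in the WT libraries and 0.0572, 0.0595 and 0.118 CPM in the Yme1l-/- libraries. The Yme1l-/- values rest on 2, 3 and 6 fragments, against 1345, 1345 and 1433 fragments in WT. On the log2 scale Sfrp2 differed by -8.96 (edgeR adjusted p = 4.0e-12). Its SE of 0.14 was taken from the test statistic and is smaller than the counting error of so few fragments. Its locus spans mm10 chromosome 3 from 83766321 to 83789956.

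Dkk2, which binds the co-receptors Lrp5 and Lrp6, had 80.0, 85.0 and 74.4 CPM in WT and 0.400, 0.278 and 0.334 CPM in Yme1l-/-. Every WT library lay far above every Yme1l-/- library, with 2430 to 2783 fragments on the WT side and 14 to 17 on the other. The log2 fold change of Dkk2 (chromosome 3, 132085292 to 132180304) was -7.90 ± 0.11 (SE), a 239-fold difference, with an edgeR adjusted p of 1.5e-12. Dkk3, a family member that does not act on Lrp6 in the way the others do, had 16, 26 and 16 fragments in WT and 2, 0 and 1 in Yme1l-/-, and was at least 6.87-fold lower when set against 3 fragments in the shallowest Yme1l-/- library. Sfrp1, the close relative of Sfrp2, had 0.393, 0.916 and 0.429 CPM in WT and 0.714, 1.15 and 1.24 CPM in Yme1l-/-. These groups overlapped, because WT replicate 2 lay above Yme1l-/- replicate 1, and the log2 fold change of 0.86 ± 0.34 (SE) passed narrowly at an edgeR adjusted p of 0.046. Sfrp1 was not called by the DESeq2 Wald test (adjusted p = 0.069), with libraries thinned to 1 depth (edgeR adjusted p = 0.089), or without WT replicate 1 or 3 or Yme1l-/- replicate 2 or 3, where the edgeR adjusted p was 0.12 to 0.15. Without WT replicate 2 its log2 fold change was 1.34 (edgeR adjusted p = 0.0068). Of the other antagonists, Dkk1 and Dkk4 had no fragment in any library, Wif1 and Sfrp5 had 2 or fewer, and Sfrp4 had 3, 7 and 5 fragments in WT and 0 in each Yme1l-/- library.

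Levels of different genes can be set side by side only per length. Summed over the 9 antagonists, CPM per kilobase of exon was 40.7, 42.5 and 40.7 in WT and 0.315, 0.384 and 0.442 in Yme1l-/-. Dkk2 and Sfrp2 made up nearly all of the WT sum on this scale, whereas Sfrp1 led in each Yme1l-/- library with 51.9% to 68.5% of what remained. In FPKM, the authors' value per length and library size that is pooled over the cultures of a genotype, the antagonists summed to 46.7 in WT and 0.436 in Yme1l-/-.

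**Figure D2:**
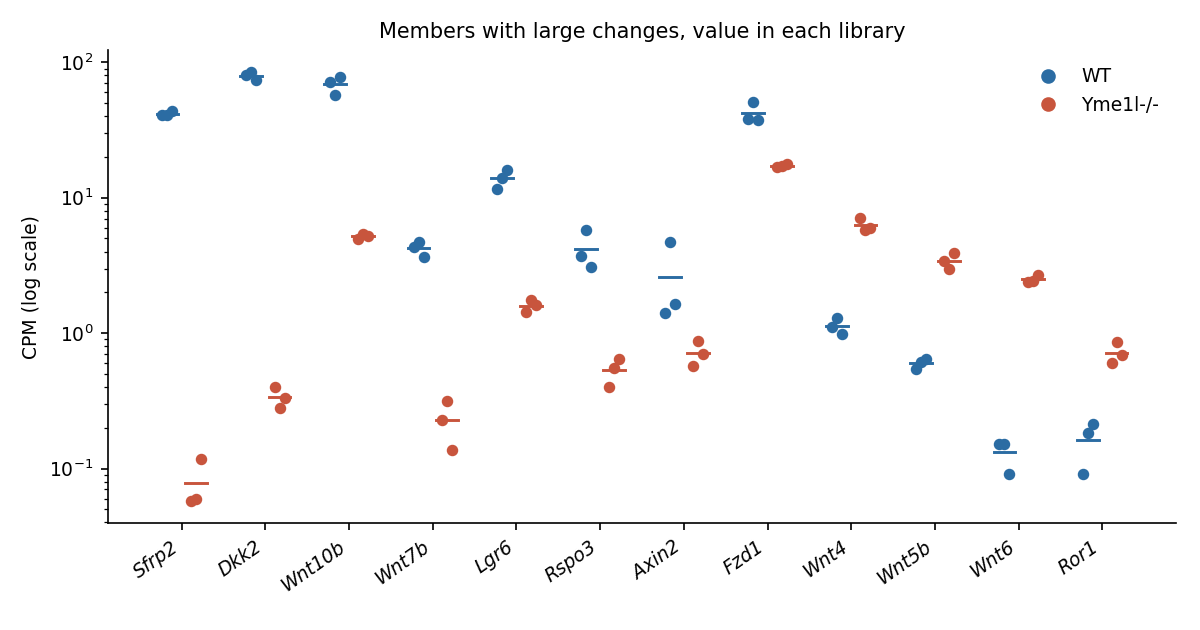
CPM on a log axis for 12 members in each library, with a point per culture and a bar at the mean of the 3 cultures of a genotype. Sfrp2, Dkk2, Wnt10b, Wnt7b, Lgr6, Rspo3, Axin2 and Fzd1 lie lower in Yme1l-/-, Wnt4, Wnt5b, Wnt6 and Ror1 lie higher, and the scatter within a genotype is widest for Axin2, where WT replicate 2 stands at 4.70 CPM.

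Among the 19 ligand genes 9 were tested and all 9 were called, 6 higher and 3 lower, beside 67.7% of all loci (33.6% higher and 34.1% lower). Of these ligands, Wnt6 passed the filter only through Yme1l-/- and Wnt7b only through WT, so both had to differ. Wnt10b, a canonical ligand known for holding back fat cell formation and favouring bone, was lost as the leading ligand. It had 71.1, 57.8 and 77.6 CPM in WT and 4.92, 5.43 and 5.2 CPM in Yme1l-/-. No Yme1l-/- library came near the WT range, and the log2 fold change of Wnt10b (chromosome 15, 98770712 to 98778150) was -3.73 ± 0.11 (SE), 13.2-fold, with an edgeR adjusted p of 2.1e-09. Wnt7b, another canonical ligand with roles in lung and bone, went the same way. Its values were 4.32, 4.70 and 3.68 CPM in WT and 0.229, 0.317 and 0.137 CPM in Yme1l-/-, and its log2 fold change was -4.20 ± 0.25 (SE). Wnt5a, the prototype of the non-canonical ligands, was lower by less, with 4.59 to 4.98 CPM in WT and 2.39 to 3.43 CPM in Yme1l-/- (log2 fold change -0.68 ± 0.15, SE, edgeR adjusted p = 0.0017).

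Of the 6 ligands called higher, 5 stood under 3 CPM in every WT library, Wnt10a being the exception. Wnt6 had 0.151, 0.153 and 0.0919 CPM in WT, resting on 5, 5 and 3 fragments, and 2.37, 2.42 and 2.69 CPM in Yme1l-/-, resting on 83, 122 and 137. Among the tested members it had the largest gain, with a log2 fold change of 4.21 ± 0.26 (SE) and an edgeR adjusted p of 8.6e-08. Wnt4, a ligand of kidney and gonad development that can act through both branches, had 1.12, 1.28 and 0.98 CPM in WT and 7.14, 5.73 and 6.01 CPM in Yme1l-/-. Wnt5b, the closest relative of Wnt5a, had 0.544, 0.611 and 0.643 CPM in WT and 3.40, 2.96 and 3.93 CPM in Yme1l-/-. Their gains were alike in size, with log2 fold changes of 2.47 ± 0.16 for Wnt4 and 2.51 ± 0.19 for Wnt5b (SE), and neither had overlapping libraries. Wnt5a and Wnt5b, which are similar proteins, were thus called in opposite directions. Wnt11, a non-canonical ligand of cell movements, had 0.846, 0.825 and 0.735 CPM in WT and 1.91, 1.69 and 1.75 CPM in Yme1l-/- (log2 fold change 1.14 ± 0.19, SE). Wnt9a, known from joint formation, ranged from 1.59 to 2.41 CPM in WT and from 3.34 to 3.66 CPM in Yme1l-/- (log2 fold change 0.88 ± 0.17, SE, and 0.52 with chromosome medians removed).

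Wnt10a, the closest relative of Wnt10b, was the only ligand above 10 CPM in every library. It had 13.6, 15.4 and 12.6 CPM in WT and 18.7, 17.9 and 16.6 CPM in Yme1l-/-, close but not overlapping, with a log2 fold change of 0.36 ± 0.09 (SE) and an edgeR adjusted p of 0.0034. In the authors' pooled FPKM, Wnt10b stood at 30.3 in WT and 2.28 in Yme1l-/-, and Wnt10a at 5.85 and 7.55, so their order was the opposite in the 2 genotypes.

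The summed ligand level and its makeup both differed. CPM per kilobase of exon summed over the ligands was 29.5, 26.7 and 30.6 in WT and 15.2, 14.4 and 14.2 in Yme1l-/-. Wnt10b held 71%, 63.7% and 74.5% of the sum in WT and 9.52%, 11.1% and 10.8% of it in Yme1l-/- cells. The share of Wnt10a was 16.7% to 23.3% in WT and 47.4% to 50.4% in Yme1l-/-. Wnt4 went from at most 1.15% to at least 9.51% of the ligand sum, Wnt5b from at most 0.862% to at least 7.75%, and Wnt6 from at most 0.261% to at least 7.12%. The leading ligand was thus Wnt10b in WT cells and Wnt10a in Yme1l-/- cells, and the share of the leading gene was smaller in Yme1l-/- cells.

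**Figure D3:**
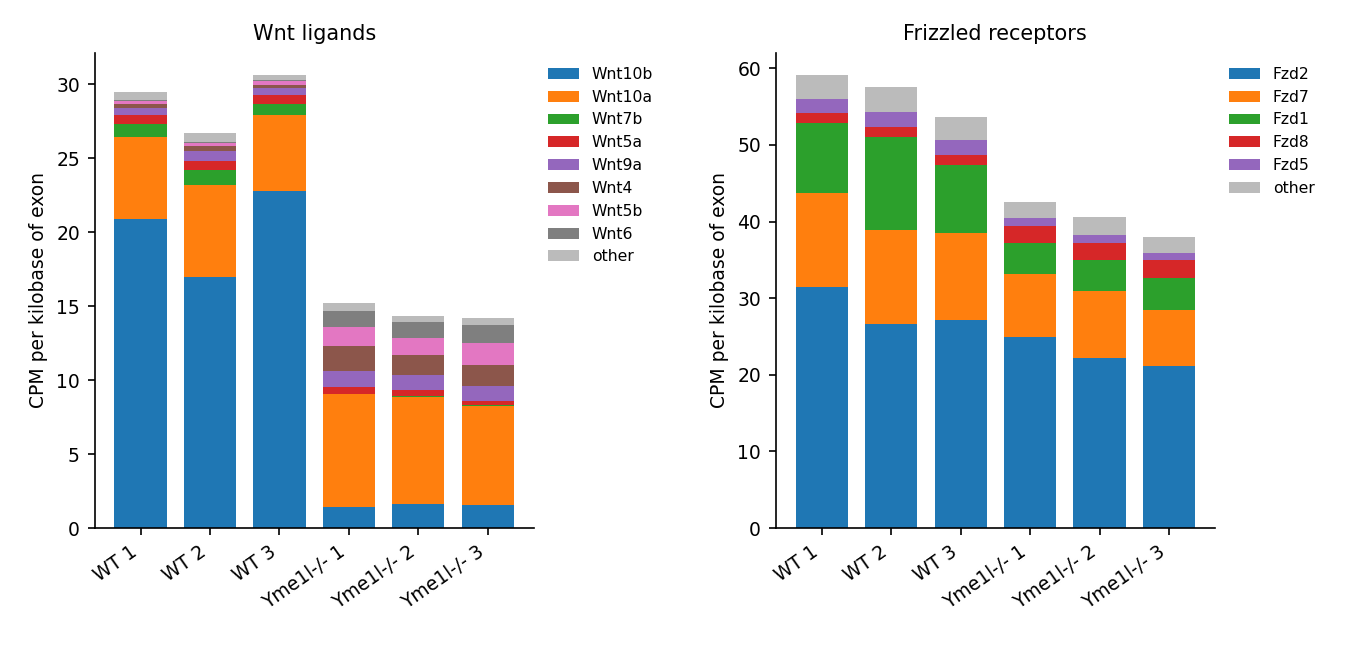
CPM per kilobase of exon (y axis) of Wnt ligands (left) and Frizzled receptors (right), stacked by gene in each of the 6 libraries. Wnt10b fills 63.7% to 74.5% of the ligand bars in WT and at most 11.1% in Yme1l-/-, while Fzd2 leads the receptor bars in every library.

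The 2 R-spondins and 2 R-spondin receptors that were tested were all called lower, as were 34.1% of all loci. Rspo3, an agonist of bone and vessel development, had 3.72, 5.74 and 3.06 CPM in WT and 0.400, 0.555 and 0.648 CPM in Yme1l-/- (log2 fold change -2.93 ± 0.27, SE). Rspo2, known from limb and lung development, had 3.08, 3.45 and 3.58 CPM in WT and 1.51, 1.49 and 1.33 CPM in Yme1l-/- (log2 fold change -1.22 ± 0.15, SE). Neither gene had overlapping libraries, and WT replicate 2 gave the highest value of Rspo3. Rspo1 did not pass the filter, with 0, 2 and 0 fragments in WT and 10, 19 and 31 in Yme1l-/-, which is at least 4.61-fold higher, opposite to Rspo2 and Rspo3. Without the filter it was called at an edgeR adjusted p of 2.9e-07.

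Lgr6, an R-spondin receptor that marks stem cells of skin, had 11.6, 14.0 and 16.0 CPM in WT and 1.43, 1.75 and 1.61 CPM in Yme1l-/-. The 3 WT libraries all lay several-fold above the Yme1l-/- range, and Lgr6 differed by -3.11 ± 0.14 on the log2 scale (SE, edgeR adjusted p = 8.7e-09). Lgr4, the broadly expressed receptor of this group, had 32.4, 35.3 and 38.8 CPM in WT and 20.7, 21.4 and 22.2 CPM in Yme1l-/- (log2 fold change -0.73 ± 0.07, SE). Lgr5, a marker of intestinal stem cells, had at most 8 fragments in a library. Per kilobase of exon, Lgr4 made up 73.8% to 76.5% of the sum over these 3 receptors in WT and 93.4% to 94.4% in Yme1l-/-.

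Of the 10 Frizzled genes 8 were tested, 6 were called lower, Fzd8 was called higher and Fzd9 was not called, where 67.7% of all loci were called and 34.1% were called lower. Fzd1 was the only one with a 2-fold change. It had 38.3, 51.2 and 37.2 CPM in WT and 16.8, 17.1 and 17.9 CPM in Yme1l-/-, with a log2 fold change of -1.29 ± 0.12 (SE) and an edgeR adjusted p of 7.7e-06. Fzd2, the receptor with the most transcripts per length in both genotypes, had 115, 97.8 and 99.5 CPM in WT and 91.1, 81.5 and 77.6 CPM in Yme1l-/-. The libraries did not overlap, and the log2 fold change of -0.32 ± 0.08 (SE) became -0.68 with chromosome medians removed. Fzd7, which shares a subfamily with Fzd1 and Fzd2, had 55.6, 55.1 and 51.6 CPM in WT and 37.4, 39.2 and 32.7 CPM in Yme1l-/- (log2 fold change -0.57 ± 0.07, SE).

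Fzd5 and Fzd8 are the members of another subfamily and were called in opposite directions. Fzd5 had 12, 13.5 and 13 CPM in WT and 7.20, 6.94 and 6.69 CPM in Yme1l-/- (log2 fold change -0.88 ± 0.09, SE). Fzd8 had 8.01, 7.79 and 7.90 CPM in WT and 13.4, 13.5 and 13.5 CPM in Yme1l-/- (log2 fold change 0.77 ± 0.08, SE, edgeR adjusted p = 4.8e-06). Fzd3, a receptor of the planar polarity branch, had 13.7, 14.5 and 15 CPM in WT and 7.57, 9.66 and 8.89 CPM in Yme1l-/- (log2 fold change -0.72 ± 0.10, SE). Fzd4, the receptor for Norrin in vessels, ranged from 7.70 to 9.62 CPM in WT and from 5.74 to 6.09 CPM in Yme1l-/- (log2 fold change -0.54 ± 0.11, SE). Fzd9 ranged from 1.44 to 2.08 CPM in WT and from 1.26 to 1.77 CPM in Yme1l-/-, overlapping, with a log2 fold change of -0.11 ± 0.21 (SE) and an edgeR adjusted p of 0.68. Per kilobase of exon the Frizzled genes summed to 53.7 to 59.1 in WT and 38.0 to 42.6 in Yme1l-/-, and Fzd2 held 46.4% to 53.3% of the sum in WT and 54.7% to 58.4% in Yme1l-/-.

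The co-receptors differed by little. Lrp5 had 108, 108 and 113 CPM in WT and 89.0, 93.8 and 95.7 CPM in Yme1l-/-, a log2 fold change of -0.24 ± 0.05 (SE). Lrp6, the main partner of Frizzled in canonical signalling, had 164, 181 and 177 CPM in WT and 189, 219 and 216 CPM in Yme1l-/-, a log2 fold change of 0.26 ± 0.06 (SE, edgeR adjusted p = 0.0030). Both were called, as were 67.7% of all loci, with groups that did not overlap, as in 71.9% of all loci. Lrp6 lost its call in 1 alternative. Loci of chromosome 6 had a median log2 fold change of 0.34, and with the chromosome medians removed Lrp6 stood at -0.08 with an adjusted p of 0.25. Summed per kilobase of exon, Lrp5 and Lrp6 reached 23.1 to 24.5 in WT and 23.0 to 25.6 in Yme1l-/-, overlapping ranges.

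Ror1 and Ror2, receptor tyrosine kinases that bind Wnt5a, were both called higher, as were 33.6% of all loci. Ror1 passed the filter only through its Yme1l-/- libraries, so it had to differ. Ror2 had 41.8, 35.9 and 36.6 CPM in WT and 48.9, 46.3 and 45.7 CPM in Yme1l-/-, a small shift without overlap (log2 fold change 0.30 ± 0.06, SE). Ror1 was scarce, with 3, 6 and 7 fragments in WT and 21, 43 and 35 in Yme1l-/-, or 0.0906, 0.183 and 0.214 CPM against 0.600, 0.853 and 0.687 CPM. Its log2 fold change was 2.13 ± 0.37 (SE), and in FPKM Ror2 made up at least 99.0% of the pair in either genotype.

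Axin1, Axin2 and Lef1 stand inside the cell. Axin1, the scaffold of the complex that destroys β-catenin, was not called, with 161, 153 and 161 CPM in WT and 174, 165 and 164 CPM in Yme1l-/- (log2 fold change 0.08 ± 0.04, SE, edgeR adjusted p = 0.12). Axin2, a scaffold that is itself a target of β-catenin and is widely read as a sign of canonical signalling, had 1.42, 4.70 and 1.65 CPM in WT and 0.572, 0.873 and 0.707 CPM in Yme1l-/-. All Yme1l-/- values lay under all WT values, while WT replicate 2 lay well above the other WT libraries. The log2 fold change of Axin2 was -1.83 ± 0.50 (SE, edgeR adjusted p = 0.012), and without WT replicate 2 it was -1.08 with an adjusted p of 0.0045. It was not called without Yme1l-/- replicate 1 (adjusted p = 0.080), without Yme1l-/- replicate 3 (adjusted p = 0.054) or without the filter on low counts (adjusted p = 0.073). Lef1, a nuclear partner of β-catenin, moved the other way, from 1.78 to 2.32 CPM in WT to 3.54 to 3.83 CPM in Yme1l-/- (log2 fold change 0.85 ± 0.15, SE).

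The 20 members that did not pass the filter were Wnt1, Wnt2, Wnt2b, Wnt3, Wnt3a, Wnt7a, Wnt8a, Wnt8b, Wnt9b, Wnt16, Rspo1, Rspo4, Fzd6, Fzd10, Lgr5, Dkk1, Dkk4, Sfrp4, Sfrp5 and Wif1. No fragment was counted for Wnt3a, Wnt16, Fzd10, Dkk1 or Dkk4, and 12 of the 20, these 5 included, had 3 fragments or fewer in every library. Wnt3a, the ligand most used to stimulate the canonical branch in culture, was thus not detectable at this depth. Among the scarce ligands, Wnt7a had 5, 17 and 7 fragments in WT and 1, 0 and 2 in Yme1l-/-, and Wnt1 had 4, 10 and 2 in WT and 0, 1 and 0 in Yme1l-/-. Wnt2b had 14, 5 and 7 fragments in WT and 1, 1 and 6 in Yme1l-/-, and Wnt2 had 7, 3 and 0 against 0, 2 and 0. Rspo4 had at most 4 fragments in a library and Fzd6 at most 2. With no filter on low counts, edgeR called Wnt1, Wnt2b, Wnt7a, Lgr5 and Sfrp4 lower and Rspo1 higher, and none of the other 9 with a fragment, in a fit that called 43.6% of all loci. The call of Lgr5 (edgeR adjusted p = 0.042) rests on 0, 8 and 1 fragments in WT and 0, 1 and 0 in Yme1l-/-. WT replicate 2 also gave the highest count of Wnt1, Wnt7a and Sfrp4, but not of Wnt2b.

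Several members lie next to each other in the genome. Wnt6 and Wnt10a lie 6.2 kb apart on chromosome 1 and were both called higher, with log2 fold changes of 4.21 and 0.36. Wnt10b lies 11.7 kb from Wnt1 on chromosome 15, and both had more fragments in WT. Dkk2 and Lef1 lie 860.9 kb apart on chromosome 3 and were called in opposite directions. Within 1 Mb of Dkk2, 10 other loci were tested, 6 called higher and 3 lower, with a median log2 fold change of 0.31. Around Sfrp2, 12 other loci were tested, 3 called higher and 7 lower, with a median of -0.26, and the lowest of them stood at -2.14. Wnt10b and Wnt7b lay among loci that were mostly higher. Of 48 tested loci around Wnt10b 43 were called higher, of 21 around Wnt7b 16 were, and the median log2 fold change was 0.70 around either gene. All tested loci of chromosome 15, on which Rspo2 lies too, had a median of 0.59, and with the chromosome medians removed the log2 fold changes were -4.32 for Wnt10b, -4.79 for Wnt7b and -1.81 for Rspo2.

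Genes that carry the signal further were counted in 4 other lists, to be read against the 67.7% of all loci that were called (33.6% higher, 34.1% lower) and the 17.7% called with at least a 2-fold change. Of 36 genes of Wnt signal transduction, all tested, 11 were called higher and 19 lower (median log2 fold change -0.18), and 2 of the 36 changed at least 2-fold. The split was 6 higher and 18 lower with chromosome medians removed, where 62.8% of all loci were called, 49.5% of these higher. It was 13 higher and 15 lower with upper-quartile scaling, where 67.6% of all loci were called, 55.1% of these higher. The transcriptional co-repressor Tle3 averaged 99.8 ± 2.56 CPM and 42.0 ± 1.44 CPM in the WT and Yme1l-/- cultures (SD, n = 3, -1.25 on the log2 scale), and its relative Tle1 stood at -0.82, followed by the casein kinase Csnk1g1 at -0.72 (-0.36 with chromosome medians removed). Apc2, a homologue of the tumour suppressor Apc, rose from 3.38 ± 0.535 to 15.6 ± 1.33 CPM (SD, n = 3, log2 fold change 2.21), and the β-catenin antagonist Cby1 and the co-activator Pygo1 had log2 fold changes of 0.99 and 0.98, that of Cby1 being 0.40 with chromosome medians removed. Ctnnb1, which encodes β-catenin and was looked at after its values were seen, went from 877 ± 4.23 to 545 ± 11.2 CPM (SD, n = 3, log2 fold change -0.69 ± 0.05, SE, and -0.33 with chromosome medians removed).

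Of 23 genes for secretion of Wnts and for their control at the cell surface 15 were tested, with 6 called higher and 5 lower (median log2 fold change 0.14), so that 73.3% were called, beside 67.7% of all loci. Without WT replicate 1, WT replicate 3 or Yme1l-/- replicate 3, 4 were called higher, in fits that called 63.4% to 64.2% of all loci. Porcn, the enzyme that attaches the lipid to Wnts, rose from 2.81 ± 0.386 to 6.66 ± 0.908 CPM (SD, n = 3, log2 fold change 1.24), the glypican Gpc4 had a log2 fold change of 1.21, and Kremen1, a Dkk receptor, 0.32 (-0.039 and not called with chromosome medians removed). Trabd2b, a protease that inactivates Wnts, fell from 6.59 ± 0.138 to 1.05 ± 0.220 CPM (SD, n = 3, log2 fold change -2.67). Adgra2, a receptor that helps Wnt7a and Wnt7b to signal in brain vessels, fell from 259.8 ± 3.13 to 89.5 ± 1.44 CPM (SD, n = 3, log2 fold change -1.54). Lypd6, which enhances signalling through Lrp6, had a log2 fold change of -1.92.

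Planar cell polarity, the branch that orients cells in a sheet, was covered by 13 loci, of which 12 were tested, 5 called higher and 6 lower (median log2 fold change -0.18), or 5 higher and 4 lower with upper-quartile scaling. In the same TMM-scaled fit as the first counts, 33.6% and 34.1% of all loci were called higher and lower. With upper-quartile scaling 67.6% of all loci were called, 55.1% of these higher. Daam2, a formin that links Dishevelled to actin, went from 7.20 ± 0.729 to 0.106 ± 0.0837 CPM (SD, n = 3, log2 fold change -6.18 ± 0.29, SE, and -6.85 without Yme1l-/- replicate 1). It passed the filter only through WT, with 7, 4 and 2 fragments in Yme1l-/-. With at least 10 counts in every sample, 10 loci of this list were tested, 5 called higher and 4 lower, beside 68.1% of all loci. The cadherin Celsr2 and the membrane protein Vangl1 had log2 fold changes of -1.07 and -0.51, and the ciliary planar polarity effectors Fuz and Intu had 1.36 and 0.55. Scrib, a polarity scaffold, had a log2 fold change of 0.43, which turned to -0.16 with the chromosome medians removed.

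Of 30 genes known as Wnt targets in various tissues 24 were tested, 9 called higher and 13 lower (median log2 fold change -0.29), and 3 of the higher and 10 of the lower calls reached 2-fold. Over all loci, 67.7% were called and 17.7% were called with at least a 2-fold change. With chromosome medians removed, 7 targets were called higher and 15 lower, beside 62.8% of all loci called. With at least 10 counts in every sample, 21 targets were tested, 9 called higher and 10 lower, beside 68.1% of all loci called. The matrix proteoglycan gene Vcan fell from 152 ± 23.2 to 24.5 ± 2.48 CPM (SD, n = 3, log2 fold change -2.63), the gap junction gene Gja1 from 750.2 ± 34.0 to 189 ± 10.3 CPM (SD, n = 3, -1.99 on the log2 scale), and the transcription factor gene Twist1 had a log2 fold change of -1.88. In the other direction, the secreted factor gene Wisp2 rose from 1.95 ± 1.19 to 29.7 ± 1.72 CPM (SD, n = 3, log2 fold change 3.92), the transcription factor gene Tbx3 from 4.0 ± 0.181 to 37.2 ± 0.838 CPM (SD, n = 3, log2 fold change 3.22), and Bmp4 had a log2 fold change of 0.95. As with Axin2, WT replicate 2 gave the highest WT value of Wisp2, at 3.33 CPM against 1.21 and 1.32 CPM, and without it the log2 fold change was 4.55. Other targets, looked at after their values were seen, were the feedback inhibitors Notum (log2 fold change -2.79 ± 0.35, SE) and Nkd2 (-3.13 ± 0.47, SE, and -2.55 without WT replicate 2), the cyclin gene Ccnd1 (-1.17 ± 0.06, SE) and Cd44 (-0.86 ± 0.06, SE), all called lower. Notum and Nkd2 reached 10 fragments in every WT library but not in every Yme1l-/- library, so they passed the filter through WT. The feedback inhibitor Rnf43 was called higher (log2 fold change 2.03 ± 0.21, SE), as were Wisp1 (0.69), Tcf7 (0.51) and Apcdd1 (0.21), likewise named after their values were seen. With chromosome medians removed Wisp1 (0.098) and Tcf7 (0.15) were not called. Apcdd1 was not called without WT replicate 1 or 3 or without Yme1l-/- replicate 2 or 3 (edgeR adjusted p 0.056 to 0.10). Myc stood at -0.17 ± 0.06 (SE, edgeR adjusted p = 0.038), which was not called without WT replicate 1 or 2, without Yme1l-/- replicate 2 or 3 (edgeR adjusted p 0.097 to 0.16) or with upper-quartile scaling, and stood at -0.76 (edgeR adjusted p = 1.7e-06) with chromosome medians removed. Notum, Rnf43 and Apcdd1 also stand in the list of surface control.

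**Figure D4:**
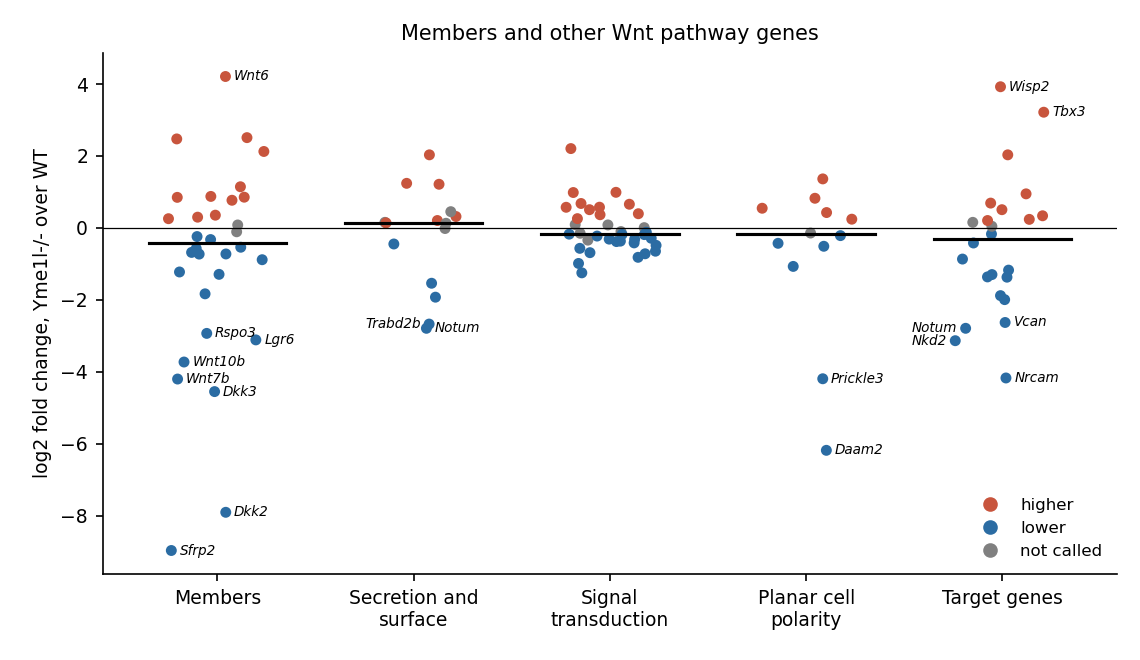
Log2 fold change (Yme1l-/- over WT, y axis) of each tested gene among the members and in 4 other Wnt pathway lists (x axis), coloured by call, with a black bar at the median of a list. Medians lie between -0.43 and 0.14, while the spread is widest among the members, from -8.96 to 4.21, and narrowest in signal transduction.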

How the data were processed

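RNA of 3 WT and 3 Yme1l-/- MEF cultures was sequenced by the authors as stranded poly(A) libraries. The submitters' processing notes name HISAT2 2.0.4, StringTie 1.3.3, Cufflinks and Cuffdiff 2.2.1 on GRCm38. The authors' deposited count table gives unnormalized whole fragment counts for 51499 assembled loci, and how fragments mapping to several places were counted is not given in the sources used here. The authors' second table gave locus positions and the deposited FPKM, pooled per genotype. Its log2 ratios, p-values and q-values were not used.

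Counts were filtered with filterByExpr (minimum count 10) and compared in R 4.3.3 with edgeR 4.0.16 (TMM scaling, factors 0.973 to 1.04, robust quasi-likelihood test, two-sided, no covariates, Benjamini-Hochberg over 13867 loci). Each SE is the absolute log2 fold change over the root of F, the test statistic, and not a standard error of the estimate. It can fall below counting error where a genotype has few fragments, as for Sfrp2, Dkk2, Wnt6 and Daam2. The study used Cufflinks, which needs alignments. A genotype with 3 counts or fewer in each library was set at 3 counts for a lower bound, which covers counting error only. CPM was divided by the merged exon length of GENCODE M21 for levels between genes, a step chosen after seeing the data. Promoters came from RefSeq. The scripts were tested on simulated data.

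Members and lists were chosen with earlier results of these data known. The text names Yme1l1, all members and, per list, the 3 highest and 3 lowest log2 fold changes of called genes that averaged 5 CPM or more in either genotype. Some further genes were chosen after their values were seen, as stated beside them. Marker genes named singly came from the marker lists and follow no such rule. Alternatives were RLE or upper-quartile scaling, DESeq2 1.42.0, 2 other filters, the replicate number as a block, leaving out each culture, thinning to 33180867 fragments and removal of chromosome medians.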

Additional observations from a re-analysis of the deposited data

How the results depend on the processing

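Of the 52 members, 25 to 35 were called over all alternatives, 35 without the filter on low counts, where 47 were tested and 43.6% of all loci were called, and 25 with at least 10 counts in every sample, where 27 were tested and 68.1% of all loci were called. Members called with at least 2-fold change numbered 20 without the filter and 10 with at least 10 counts in every sample. The 2-fold share of all loci was not counted in these fits, so these numbers have no background beside them. The median log2 fold change of the members was -0.37 with upper-quartile scaling, which moved the median of all loci to 0.06, -0.58 without the filter and -0.32 with at least 10 counts in every sample. Leaving out a culture gave medians of -0.43 to -0.25, 28 to 31 members called and 8847 to 9406 loci called. With chromosome medians removed, the sign turned for Lrp6 (-0.084), Axin1 (-0.085), Kremen1 (-0.039) and Scrib (-0.16, edgeR adjusted p = 0.0055, called lower). Fzd9, never called, ranged from -0.21 to 0.080 when a culture was left out and lay above 0 without WT replicate 1 or without Yme1l-/- replicate 3. The causes were not tested. Axin1 was called with upper-quartile scaling (0.14, edgeR adjusted p = 0.014). Yme1l1, the tested members and the named list genes (67 in all) gave 930 values under the alternatives. Of these 903 kept direction and call, 6 turned sign, 1 gained a call and 22 lost it, 2 of which also turned sign (those lost were of Sfrp1, Axin2, Lrp6, Kremen1, Myc, Apcdd1, Tcf7 and Wisp1).

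Samples of the same number had correlations of their deviations of 0.14, -0.09 and 0.05. These 3 values cannot decide whether the numbers pair the cultures, and the main fit used no pairing. A replicate block in the model gave 9794 loci and 30 members called, 12 higher and 18 lower. Depth limited what could be said of the 20 members that were not tested, of which 12 had 3 fragments or fewer in every library.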
